A study of Sus scrofa with 12 samples.

Results

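The genes of prostaglandin synthesis, breakdown and reception were described in the uterus of newborn pigs. The set was a list of 10 genes: the phospholipases PLA2G4A and PLA2G4E, the prostaglandin synthases PTGS1, PTGS2 and PTGES, the degrading enzyme HPGD, and the receptor genes PTGER2, PTGER3, PTGER4 and PTGFR. They were taken from the deposited expression table by gene symbol or, where the table holds a placeholder name, by the gene's identity in a name table. Of the 10 genes, 9 were matched, and they hold 10 of the 20390 entries of the table because PTGER3 is entered at 2 positions. PTGER4 was not analysed here. All 10 entries passed a filter on low values (a value above 1 in at least 4 of the 12 libraries), as did 16862 entries in all.

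Prostaglandins are short-lived lipid signals made where they act. Cytosolic phospholipase A2 frees arachidonic acid from membranes, PTGS1 and PTGS2 (the cyclooxygenases) turn it into PGH2, and terminal synthases such as PTGES turn PGH2 into PGE2 and related products. HPGD inactivates them, and they act on G protein coupled receptors, those for PGE2 being coded by the PTGER genes and the one for PGF2alpha by PTGFR. In the adult uterus these signals take part in myometrial contraction, endometrial bleeding and repair, implantation and, in pigs, the regression of the corpus luteum.

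RNA of whole uteri was sequenced from 12 crossbred gilts (young female pigs of Landrace, Yorkshire, Duroc and Hampshire stock), 4 in each of 3 groups and 1 library per gilt. In the PND0 group uteri were collected no later than 1 h after birth. PND2N gilts suckled at will over 48 h, PND2R gilts received a commercial milk replacer over the same 48 h, and both groups were killed at an age of 50 h. No litter, date or batch is named for any animal. The library numbers name animals and pair none of them.

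Values are the authors' normalized values on a linear scale, whose lowest entry is 1. Library totals lay between 26534074 and 29544130, and the read depth behind a value is unknown. Of a list of 10 uterine genes, 9 were matched and none of them sat at the minimum in every library. Their summed value ranged over 24373 to 28051 in PND0, over 27158 to 33722 in PND2N and over 28333 to 32342 in PND2R. A group of 3 day 2 libraries stood apart from the rest. In PND2N 1, PND2R 2 and PND2R 3 the muscle filament gene DES was between 29022 and 40049, against 7460.1 to 23439.7 elsewhere, while CALD1 of the same smooth muscle list was at its lowest, 14475 to 18682. VWF of endothelium was 24.2 to 90.2 there, while EGFL7 of the same endothelium list was at its highest, 2930.3 to 4622. These single markers were chosen after their values were seen, and they do not stand for their lists. Since whole tissue was sequenced, fewer cells of a type and less RNA per cell cannot be told apart for any of the genes below.

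Changes are given as log2 change ± SE on the log2(value + 1) scale, from 1 limma fit of all 12 libraries, and group levels as mean ± SD (n = 4). A gene is said to pass when its limma p, with Benjamini-Hochberg adjustment over all 16862 entries, is under 0.05. The members were chosen by function with the group levels and log2 changes of these same libraries already known, so every value of the 3 group comparisons counts as used in the choice. Their passes are therefore a description, no p is given for them, and nothing is read from how many passed. In PND2N against PND0, 1 of 10 member entries passed (lower), and 3.32% of all entries did, 1.91% higher and 1.41% lower. In PND2R against PND0, 3 of 10 passed, 1 higher and 2 lower, beside 15.0% of all entries, 7.7% higher and 7.31% lower. Between the day 2 groups it was 0 of 10, beside 0.0119% of all entries. None of the 10 had an unadjusted limma p under 0.05 there, beside 2.68% of all entries. Both comparisons with birth use the same 4 PND0 libraries.

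**Figure D1:**
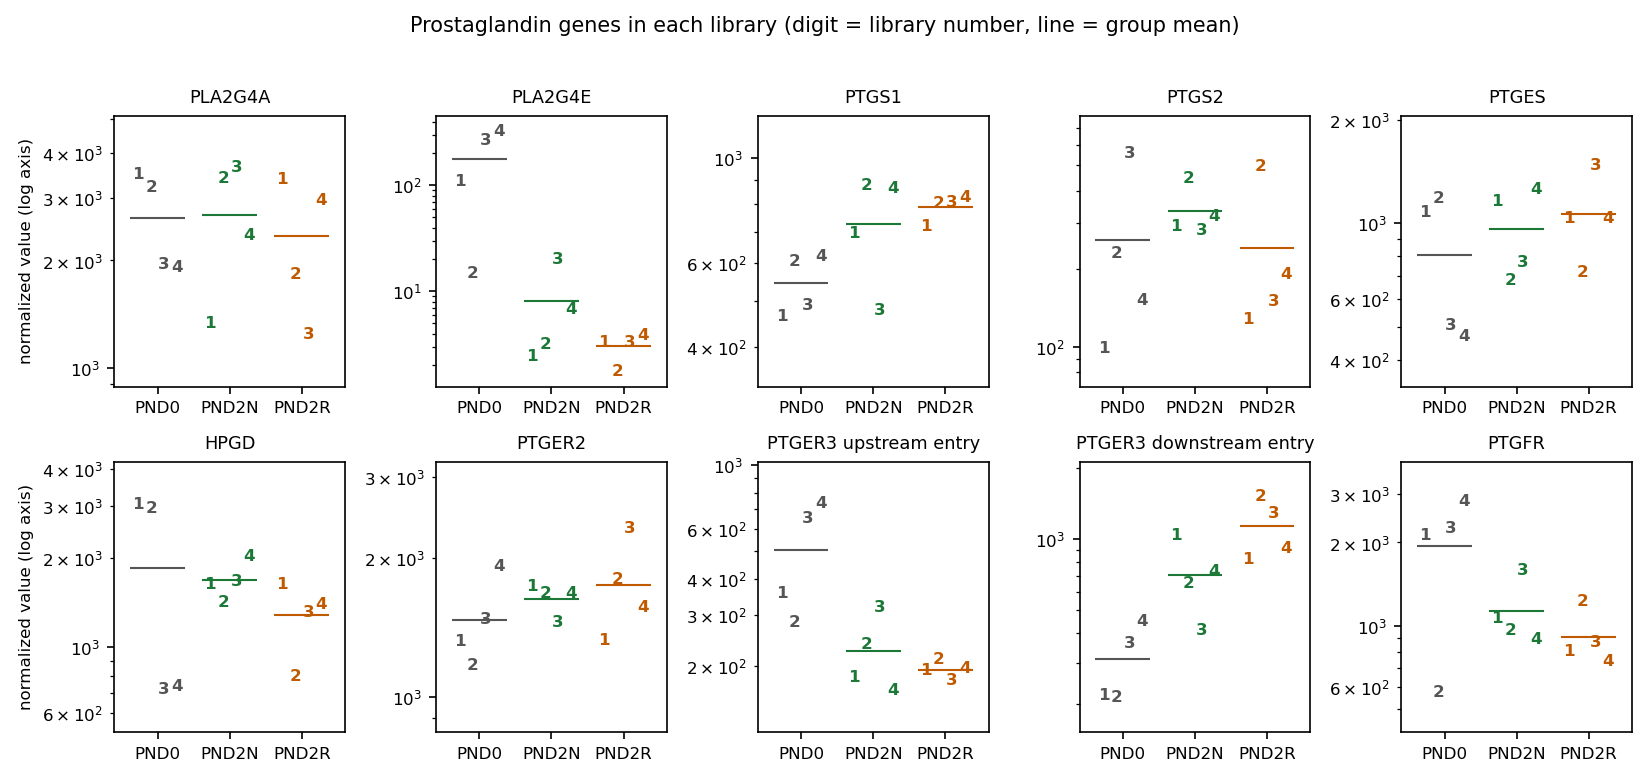
Normalized value (log axis) of each member entry in PND0, PND2N and PND2R. Each digit is the library of that number and each line the group mean. PLA2G4E lies between 14.7 and 325 at birth and between 1.77 and 20.01 at day 2, and PTGS2, PTGES and PLA2G4A overlap across all groups.

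PLA2G4E was the member whose level differed most from birth. It belongs to the cytosolic phospholipase A2 group IV and is known as a calcium-dependent N-acyltransferase that makes precursors of N-acylethanolamine lipids (chromosome 1, 135070831 to 135142447 on Sscrofa10.2). In PND0 1 to 4 its normalized value was 109, 14.7, 267 and 325. In PND2N 1 to 4 it was 2.42, 3.18, 20.01 and 6.69, and in PND2R 1 to 4 it was 3.32, 1.77, 3.3 and 3.82. All 4 replacer-fed libraries lay below every newborn library, whereas the lowest newborn library, PND0 2, lay below PND2N 3. The group means were 179 ± 142, 8.08 ± 8.17 and 3.05 ± 0.89.

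The log2 change of PLA2G4E was -4.00 ± 0.86 in nursed and -4.80 ± 0.86 in replacer-fed gilts, and both passed. The day 2 groups differed by 0.81 ± 0.86, nursed minus replacer-fed, with overlapping values. The pass in PND2R held with each of the 12 libraries left out in turn, at -5.74 to -4.28. That in PND2N held in 5 of 12 such fits, at -4.94 to -3.48, and was lost without PND0 1, PND0 3, PND0 4, PND2N 1, PND2N 2, PND2N 4 or PND2R 4. Without the 3 libraries that stood apart neither passed, at -3.66 and -4.60. The values at day 2 lie near the table's minimum of 1, so a log2 change on this scale understates the difference. Adding 0.1 in place of 1 gave -4.23 and -5.16, and adding 5 gave -3.37 and -3.89.

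PLA2G4A codes the classic calcium-dependent cytosolic phospholipase A2, which supplies arachidonic acid to the cyclooxygenases (chromosome 9, 138682831 to 138845333). Its value was 3492, 3212, 1945 and 1910.3 in PND0 1 to 4, 1333, 3401, 3646 and 2345 in PND2N 1 to 4, and 3373, 1828, 1239 and 2955 in PND2R 1 to 4. The groups overlapped throughout, with means of 2640.0 ± 830.4, 2681 ± 1061 and 2349 ± 987. The log2 change from birth was -0.03 ± 0.38 in PND2N and -0.22 ± 0.38 in PND2R, and neither passed. Within day 2 the gene was lowest in the 3 libraries that stood apart, at 1239 to 1828 against 2345 to 3646 in the other 5.

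PTGS1, the constitutive cyclooxygenase (chromosome 1, 275149403 to 275175446), was the steadiest member at birth. Its newborn values were 463, 607, 488 and 620.5, so that the highest was 1.34 times the lowest. In PND2N it stood at 693, 876, 478 and 862, and in PND2R at 717, 804, 807 and 827. Of the 8 day 2 libraries 7 lay above every newborn library, PND2N 3 being the exception. The group means were 545 ± 80.6, 727 ± 186 and 789 ± 48.8, and the log2 changes of 0.39 ± 0.21 and 0.54 ± 0.21 did not pass. Nursed and replacer-fed values overlapped, at a difference of -0.16 ± 0.21.

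PTGS2, the inducible cyclooxygenase (chromosome 9, 138532894 to 138541589; PGHS-2 in the table), had the widest spread of all members with replacer and, after PLA2G4E, the widest at birth. Its values were 98.7, 229, 555 and 152 at birth, 290.0, 445, 282 and 317 in nursed gilts, and 128, 497, 149 and 191 in replacer-fed gilts. The nursed libraries were the closest to each other, with the highest 1.58 times the lowest, against 5.63 times at birth and 3.9 times with replacer. Among replacer-fed gilts PND2R 2 stood far above the other 3 libraries, which held 127.6 to 190.8. The means were 259 ± 205, 333 ± 75.6 and 241 ± 173. Log2 changes from birth were 0.65 ± 0.53 and -0.02 ± 0.53, the nursed minus replacer-fed difference was 0.67 ± 0.53, and none passed. PTGS2 and PLA2G4A, the inducible synthase and the enzyme that feeds it, lie 141241 bases apart on chromosome 9. At birth PTGS2 was lowest in PND0 1, the library where PLA2G4A was highest. PND0 4, the next lowest in PTGS2, was the lowest in PLA2G4A, so the libraries were not in reverse order.

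PTGES codes the microsomal PGE synthase that is induced together with PTGS2 in many tissues (chromosome 1, 284295708 to 284308450). Its values were 1072, 1177, 504 and 468 at birth, 1158, 679, 768 and 1249 in PND2N, and 1029, 719, 1467 and 1034 in PND2R. The newborn libraries formed 2 pairs, while the day 2 libraries lay between 679 and 1467. The means of 805 ± 371, 963 ± 282 and 1062 ± 308 gave log2 changes of 0.33 ± 0.35 and 0.48 ± 0.35, and neither passed.

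HPGD, the 15-hydroxyprostaglandin dehydrogenase that begins the inactivation of PGE2 and PGF2alpha (chromosome 14, 17192393 to 17240131), showed the same newborn pairs more widely. It stood at 3025 and 2940.5 in PND0 1 and PND0 2 but at 719.9 and 733 in PND0 3 and PND0 4. The day 2 values of 1625, 1419, 1665 and 2030.4 in PND2N and 1627, 792, 1303 and 1396 in PND2R all lay between these pairs. The means were 1855 ± 1303, 1685 ± 254 and 1279 ± 352. Log2 changes were 0.18 ± 0.46 and -0.25 ± 0.46, nursed minus replacer-fed was 0.43 ± 0.46, and none passed.

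The receptor gene PTGER2 overlapped between all groups. It codes EP2, the PGE2 receptor that raises cyclic AMP and relaxes smooth muscle (chromosome 1, 189719294 to 189730677; a placeholder name in the table). Its values were 1319.6, 1172, 1475 and 1919 at birth, 1735, 1672, 1447 and 1678 in PND2N, and 1322, 1798, 2315 and 1566 in PND2R. The means of 1471 ± 323, 1633 ± 127 and 1750.4 ± 423.5 differed by less than the spread within PND0 or PND2R. Log2 changes were 0.17 ± 0.20 and 0.24 ± 0.20, and neither passed. Among day 2 libraries the 3 that stood apart held the highest values, 1735 to 2315.

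PTGER3 codes EP3, the PGE2 receptor that mostly lowers cyclic AMP and favours contraction. Its transcripts are known to be spliced alternatively in the part that codes the C-terminal tail. Any part of splicing in the values below was not tested. The table enters PTGER3 at 2 positions on the forward strand of chromosome 6 of Sscrofa10.2: an upstream entry from 130963909 to 130999400, 35492 bases long, and a downstream entry from 131191726 to 131192429, 704 bases long. They lie 192325 bases apart with another gene, ZRANB2, between them. In a gene table of the later assembly Sscrofa11.1, used here for names and for which genes neighbour each other, PTGER3 is a single gene and ZRANB2 lies outside it. Levels of the entries are not compared here, because they differ in length; what is compared is how each moved across libraries.

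The upstream PTGER3 entry was lower at day 2. It held 359, 284, 651 and 732 in PND0, 183, 237, 320.3 and 165 in PND2N, and 193, 210.4, 179 and 196 in PND2R. All replacer-fed libraries lay below all newborn libraries, whereas PND2N 3 lay above PND0 2. From a mean of 506 ± 218 at birth it stood at 226 ± 69.7 and 195 ± 13.0. The log2 change was -1.10 ± 0.33 in PND2N, which did not pass, and -1.27 ± 0.33 in PND2R, which did. The pass held in 8 of 12 fits that left out 1 library (-1.51 to -1.06), and was lost without PND0 3, PND0 4, PND2R 2 or PND2R 3. It was also lost under quantile normalization, at -1.07, and without the 3 libraries that stood apart, at -1.27.

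The downstream PTGER3 entry moved the other way. It held 219, 213, 363 and 448 in PND0, 1039.6, 652, 413 and 729.9 in PND2N, and 823, 1524, 1280.4 and 915 in PND2R. Every replacer-fed library and all nursed libraries but PND2N 3 lay above every newborn library. The means were 311 ± 115, 708 ± 259 and 1136 ± 326. The log2 change was 1.18 ± 0.33 in PND2N, which did not pass, and 1.90 ± 0.33 in PND2R, which did, and nursed minus replacer-fed was -0.71 ± 0.33. The change in PND2N passed with library quality weights, at 1.19, and without PND2N 3, at 1.42. The pass in PND2R held with each of the 12 libraries left out in turn (1.74 to 2.1) but not without the 3 libraries that stood apart, at 1.55. Those 3 held the highest downstream values of day 2, 1039.6 to 1524 against 413 to 915 in the other 5.

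Because the entries moved in opposite directions, the log2 ratio of downstream to upstream separated newborn from day 2 libraries completely. It was -0.71, -0.41, -0.84 and -0.71 in PND0 1 to 4, 2.50, 1.45, 0.36 and 2.14 in PND2N 1 to 4, and 2.09, 2.85, 2.83 and 2.22 in PND2R 1 to 4. The sum of both entries overlapped between groups, at 497.7 to 1179.9 at birth, 732.9 to 1222.9 with nursing and 1016.6 to 1734.4 with replacer. A ratio of this kind moved in other genes too. Another 20 genes have 2 entries on 1 strand, with both entries above 10 in at least 4 libraries. Their median log2 ratio, after each gene was centred on its own mean, was -0.95 to -0.80 at birth, -0.67 to 1.73 with nursing and -0.34 to 1.32 with replacer. It was highest in PND2N 1, PND2R 2 and PND2R 3, at 1.21 to 1.73. Of these 20 genes, 18 had a higher mean ratio at day 2 than at birth, and in 6 all 8 day 2 libraries lay above all newborn libraries. The part of this library difference in the PTGER3 values was not tested. With that median as a covariate, a fit chosen after seeing the data, the change in PND2R was -1.01 for the upstream entry, which no longer passed, and 1.23 for the downstream entry, which did. PLA2G4E under the same covariate was at -3.33 in PND2N and -3.99 in PND2R and passed in neither. The covariate was lower in every newborn library than in any day 2 library. It therefore takes up part of the difference between birth and day 2, and a pass lost under it cannot be assigned to either.

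**Figure D2:**
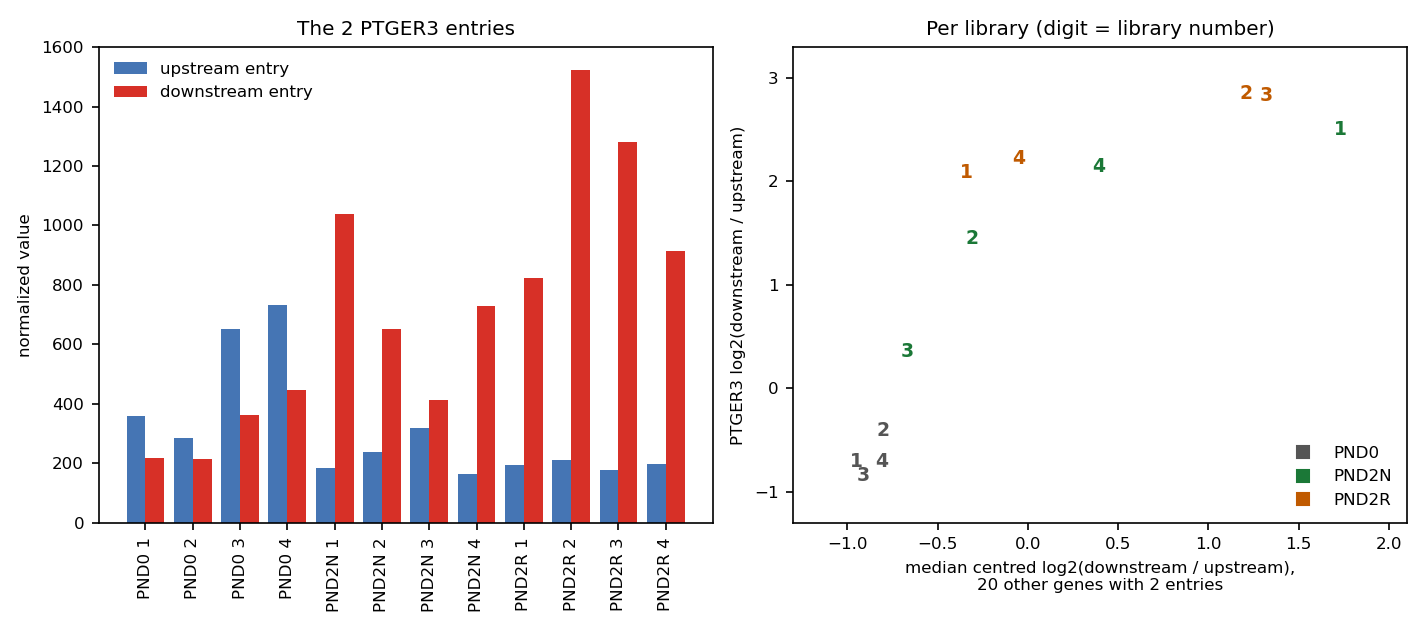
Left, normalized values of both PTGER3 entries as bars for each of the 12 libraries; right, the log2 ratio of downstream to upstream PTGER3 values against the median centred log2 ratio of 20 other genes with 2 entries, 1 digit per library. The PTGER3 ratio is between -0.84 and -0.41 in PND0 and between 0.36 and 2.85 at day 2.

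PTGFR codes the FP receptor for PGF2alpha, through which this prostaglandin contracts the uterus and ends luteal function (chromosome 6, 124244679 to 124288438). Its values were 2127, 574, 2239 and 2805 at birth, 1062, 958, 1589 and 888 in PND2N, and 805, 1222, 867 and 739.5 in PND2R. In 3 newborn libraries it lay above all 8 day 2 libraries, while PND0 2 was the lowest of all 12. The means were 1936 ± 956, 1124 ± 318 and 908 ± 215. Log2 changes of -0.60 ± 0.42 and -0.90 ± 0.42 did not pass. This rested on PND0 2: without that library they were -1.12 and -1.41, and both passed. With all libraries the day 2 groups differed by 0.30 ± 0.42.

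No member entry kept the 4 nursed libraries apart from the 4 newborn ones, beside 16.0% of all entries. Replacer-fed and newborn libraries did not overlap in 4 of 10 entries: PTGS1 and downstream PTGER3 were higher with replacer, and PLA2G4E and upstream PTGER3 were lower. Of all entries 28.3% were separated in that comparison. None of the 10 separated nursed from replacer-fed libraries, beside 2.55% of all entries, and none placed all 8 day 2 libraries on one side of all newborn libraries, beside 13.3%. The median log2 change of the 10 was 0.18 in PND2N and -0.12 in PND2R, against -0.04 and -0.06 over all entries. Nursed minus replacer-fed differences ran from -0.71 to 0.81 (downstream PTGER3 at -0.71 ± 0.33 and PLA2G4E at 0.81 ± 0.86).

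**Figure D3:**
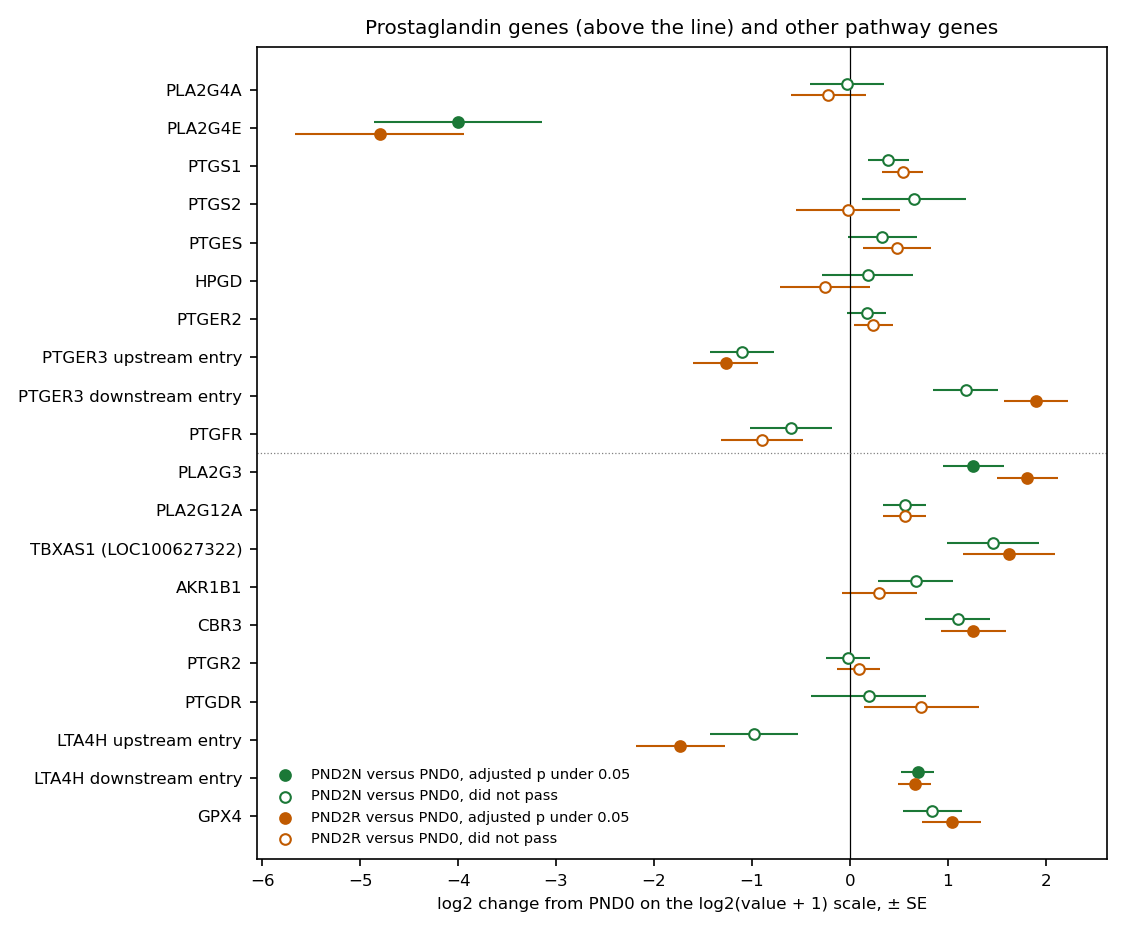
Log2 change from PND0 (x axis, bars are SE) of the member entries above the dotted line and of other pathway genes below it. Filled points passed at an adjusted p under 0.05 and open points did not; PLA2G4E, at -4.00 and -4.80, and downstream PTGER3, at 1.18 and 1.90, lie farthest from 0 among the members.

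The newborn libraries differed among themselves as much as many members differed between ages. PND0 1 and PND0 2 were both above PND0 3 and PND0 4 in PLA2G4A (by 1.74 times, as ratio of the pair means), PTGES (2.31 times) and HPGD (4.1 times). They were both below in PLA2G4E, PTGER2, PTGFR and both PTGER3 entries, where the mean of PND0 3 and PND0 4 was 1.36 to 4.78 times that of PND0 1 and PND0 2. PTGS1 and PTGS2 followed neither order. The pairs were chosen after the values were seen, and 34.4% of all entries were higher and 33.6% lower in the same pair.

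Epithelial markers moved with this pattern. All 9 matched of 10 listed epithelial markers were higher in PND0 1 and PND0 2, and their summed value was 106200 and 110735 there but 30614 and 23905 in PND0 3 and PND0 4. At day 2 the sum ran from 51373 to 95781 with nursing and from 74429 to 94762 with replacer. Stromal markers went the other way in 7 of 9 entries (summed 343537 to 439339 at birth, 297204 to 533757 with nursing, 256583 to 432617 with replacer), as did 5 of 9 smooth muscle markers (summed 155317 to 210529.5 at birth, 132825 to 363707 with nursing, 173829 to 288089 with replacer). Their part in the values of the members was not tested. As a percent of the summed epithelial markers, a measure chosen after its values were seen, HPGD was 2.85, 2.66, 2.35 and 3.07 in PND0 1 to 4. It was 1.70, 2.76, 2.58 and 2.37 in PND2N and 2.11, 1.06, 1.37 and 1.79 in PND2R, so the newborn pairs no longer stood apart and every replacer-fed library lay below every newborn one. The sum is mostly KRT8, KRT18 and KRT19. Over KRT8, KRT18, KRT19 or CLDN7 alone, HPGD also separated replacer-fed from newborn libraries. Over EPCAM, CLDN3, CLDN4, ELF3 or ESRP1 alone, these groups overlapped. PTGES as a percent of the summed markers was 1.01 and 1.06 in PND0 1 and PND0 2 against 1.65 and 1.96 in PND0 3 and PND0 4, in the reverse order of its own values. PLA2G4A was likewise reversed, at 3.29 and 2.90 against 6.35 and 7.99.

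**Figure D4:**
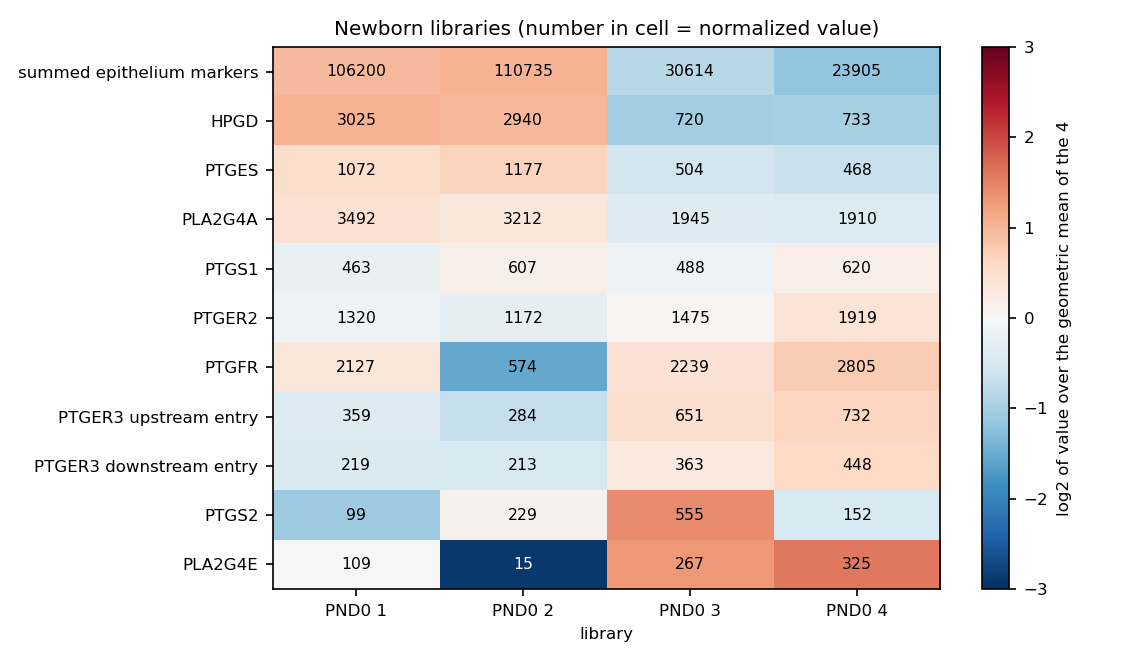
The 4 newborn libraries (columns) for the summed epithelial markers and each member entry. Colour is log2 of the value over the geometric mean of the 4 libraries and the number in each cell is the normalized value; HPGD is 3025 and 2940.5 where the summed markers are high and 719.9 and 733 where they are low, and PLA2G4E runs from 14.7 to 325.

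Leukocyte markers were read for the same reason, since macrophages, mast cells and neutrophils make prostaglandins. Macrophage markers (8 of 10 matched) summed to 4150.0 to 7944 at birth, 8616 to 10593 with nursing and 7260.1 to 10962 with replacer. The sum was higher in every nursed library than in any newborn library, as were C1QA, C1QB and C1QC. Others of the list went differently: CSF1R was 498 to 635 in PND2R, below the 715 to 1356 of PND0, and MRC1 overlapped between all groups. Mast cell markers (6 of 8) summed to 7089 to 19196, 7225 to 9614 and 8279.7 to 9413, and neutrophil markers (6 of 8) to 389 to 457, 317 to 758 and 380.0 to 756. In every library GATA2 (4505 to 14503) was most of the mast cell sum and ELANE (175 to 580) most of the neutrophil sum. Neither sum therefore stands for its list. MS4A2 (28.8 to 239.7) and FCER1A (3.4 to 49.2) of the mast cell list were far lower than GATA2. Endothelial markers (9 of 10) summed to 14022 to 20126, 11466 to 16566 and 10399 to 12450, with all replacer-fed libraries below all newborn ones. Of the list, TIE1 (514.4 to 839.5 in PND2R, 1847.5 to 3217.1 in PND0) and VWF (55.8 to 599.2, 1835.7 to 3193.6) were separated likewise. PECAM1, KDR, TEK, ESAM, CLDN5, ERG and EGFL7 overlapped between these groups. No marker of these lists sat at the minimum in every library. CXCR2 (at most 2.8) and MPO (at most 4.6) of the neutrophil list and CD14 (at most 9.8) of the macrophage list lay near it. The part of these lists in the values of the members was not tested.

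Other genes of the pathway were read from 5 lists of 43 genes, of which 34 genes with 37 entries were matched and 31 entries were tested. The lists were written by function but with earlier results of these data known, so their counts and p-values describe these libraries and are no independent support. In PND2N against PND0, 2 entries passed, both higher, which is 6.45% beside 3.32% of all entries. In PND2R against PND0, 6 passed, 5 higher and 1 lower, which is 19.4% beside 15.0% of all entries. Between the day 2 groups 0 passed, and 2 had an unadjusted limma p under 0.05, which is 6.45% beside 2.68% of all entries. The median log2 change of the 31 was 0.19 in PND2N and 0.09 in PND2R.

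Among other phospholipases A2, 1 of 5 tested entries passed, higher in both comparisons with birth. PLA2G3, a secreted phospholipase A2, stood at 129, 149, 96.4 and 64.2 in PND0, 323, 196, 283 and 222 in PND2N, and 389.7, 285, 489 and 338 in PND2R. Every day 2 library lay above every newborn library. The log2 change was 1.26 ± 0.31 in PND2N (limma adjusted p = 0.0476) and 1.81 ± 0.31 in PND2R (limma adjusted p = 0.00783). The rise in PND2R held in all 12 fits with a library left out (1.58 to 1.98), without the 3 libraries that stood apart (1.79) and with the ratio covariate (1.66). That in PND2N held in 1 of 12, the fit without PND0 2 (range 1.03 to 1.43). The phospholipase with the highest mean, PLA2G12A, did not pass (0.56 ± 0.22 in both comparisons, limma adjusted p = 0.157 and 0.096).

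Of 8 tested entries of terminal prostanoid synthases 1 passed, higher in PND2R. Of the 8, 7 had a positive log2 change in PND2N and 5 in PND2R. An untested entry described as thromboxane-A synthase-like sat at the minimum of 1 in every library. The entry that passed has the same description and was taken as TBXAS1, which turns PGH2 into thromboxane. Its values were low: 2.62, 1.00, 7.59 and 5.77 in PND0, 13.9, 9.61, 11.5 and 11.3 in PND2N, and 8.31, 14.5, 22.7 and 10.02 in PND2R. All day 2 libraries were above all newborn libraries, and the log2 change was 1.46 ± 0.47 in PND2N (limma adjusted p = 0.095) and 1.62 ± 0.47 in PND2R (limma adjusted p = 0.0387). AKR1B1, an aldose reductase that can make PGF2alpha, had the highest mean of the list and ranged from 2852 to 14251 without passing (0.67 ± 0.38 and 0.30 ± 0.38, limma adjusted p = 0.295 and 0.577). The other PGE synthases, PTGES2 and PTGES3, did not pass either; both were looked up after their values were seen. PTGES2 was 666 ± 197 at birth, 1163 ± 506 in PND2N and 1224 ± 284 in PND2R, with a log2 change in PND2R of 0.90 ± 0.31 (limma adjusted p = 0.0657), and PTGES3 changed by -0.10 ± 0.18 (limma adjusted p = 0.722).

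In transport and breakdown, 1 of 4 tested entries passed, higher in PND2R. CBR3, a carbonyl reductase, held 166, 102, 119 and 95.8 in PND0, 344, 188, 210.2 and 308 in PND2N, and 197, 362, 425 and 217 in PND2R, with no overlap between birth and day 2. Its log2 change was 1.10 ± 0.33 in PND2N (limma adjusted p = 0.0801) and 1.26 ± 0.33 in PND2R (limma adjusted p = 0.0272). PTGR2, a reductase of 15-keto prostaglandins that acts after HPGD, had the highest mean and changed by -0.02 ± 0.22 and 0.09 ± 0.22 (limma adjusted p = 0.972 and 0.798). None of 4 tested entries among the remaining prostanoid receptors passed, and 3 of them had an unadjusted limma p under 0.05 in PND2R, as had 37.0% of all entries. PTGDR, the PGD2 receptor gene 31134 bases from PTGER2, had the highest mean of that list and changed by 0.19 ± 0.59 and 0.73 ± 0.59 (limma adjusted p = 0.855 and 0.373).

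Of 10 tested entries of leukotriene and lipoxygenase enzymes, 1 passed in PND2N and 3 in PND2R. LTA4H, which makes leukotriene B4, is entered at 2 positions like PTGER3, and its entries also moved in opposite directions. LTA4H is 1 of the 20 other genes with 2 entries whose median ratio is given above. The upstream entry was 1131, 1289.5, 1319 and 1253 in PND0, 278, 1031, 1059.7 and 526 in PND2N, and 624, 310.1, 185 and 551 in PND2R. It fell in PND2R by 1.73 ± 0.45 on the log2 scale (limma adjusted p = 0.028) and changed by -0.98 ± 0.45 in PND2N (limma adjusted p = 0.211). The downstream entry rose, from 4749 ± 425 to 7704 ± 1057 in PND2N (0.69 ± 0.17, limma adjusted p = 0.0483) and 7603 ± 1678 in PND2R (0.66 ± 0.17, limma adjusted p = 0.0271). GPX4, which reduces lipid hydroperoxides, rose in PND2R from 3322 ± 832 to 6941 ± 2304 (1.04 ± 0.30, limma adjusted p = 0.0413). In PND2N it changed by 0.84 ± 0.30 (limma adjusted p = 0.129).

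Apart from that of PLA2G3 in PND2R, these passes were lost in some of the fits with 1 library left out. Those in PND2R held in 4 of 12 fits with a library left out for TBXAS1 (log2 change 1.23 to 1.93), 5 for GPX4 (0.86 to 1.21), 7 for CBR3 (1.07 to 1.44), 7 for upstream LTA4H (-1.98 to -1.39) and 8 for downstream LTA4H (0.56 to 0.75). All 5 were lost without PND2R 2, without PND2R 3 and without PND0 4. TBXAS1 was also lost without PND0 1, PND0 2, PND2N 2, PND2N 4 or PND2R 4, GPX4 without PND0 1, PND0 3, PND2N 4 or PND2R 4, CBR3 without PND0 2 or PND0 3, upstream LTA4H without PND0 1 or PND0 3, and downstream LTA4H without PND0 1. Leaving out a PND2N library does not alter the log2 change in PND2R. In those fits it stayed at 1.62 for TBXAS1 and 1.04 for GPX4, so the lost pass there reflects the p-value alone. Without the 3 libraries that stood apart none of the 5 passed, at 1.16 for TBXAS1, 0.63 for GPX4, 0.81 for CBR3, -1.09 for upstream LTA4H and 0.38 for downstream LTA4H. The ratio covariate gave 1.15, 0.29, 0.64, -0.52 and 0.31 in the same order, and none passed. LTA4H is among the 20 genes behind that covariate, so this fit is not independent of its 2 entries. The covariate also differed between birth and day 2 in every library. The rise of downstream LTA4H in PND2N held in 1 of 12 fits, that without PND2N 3 (range 0.63 to 0.79). In the 3 libraries that stood apart TBXAS1, GPX4, CBR3 and downstream LTA4H were above the other 5 day 2 libraries and upstream LTA4H was below them. The same held above for 10 and below for 5 of the 31 pathway entries, for 2 and 1 of the 10 members (PTGER2 and downstream PTGER3 above, PLA2G4A below), and for 21.0% and 26% of all entries.

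The genes most like PTGS2, PTGES and PLA2G4E across the 12 libraries were listed by Pearson correlation of log2 values among 11118 named entries with a mean of at least 10. These correlations are a description with no test, and the points share age groups and library composition. For PTGS2 they were SMYD2 (r = 0.828), CTHRC1 (0.822), SLA (0.822), IKBIP (0.82) and WDR3 (0.804), and without the 2 libraries farthest from its median, PND0 1 and PND0 3, these were between 0.702 and 0.744. For PTGES they were ZFR2, HPN, TPD52L1, C3H16orf89 and ACADS (r = 0.937 to 0.941, and 0.855 to 0.877 without PND0 3 and PND0 4). The table describes its ZFR2 entry as a megakaryocyte tyrosine kinase, so the identity of that entry is uncertain. For PLA2G4E they were MED16 (0.956), the hyaluronan synthase 2 gene (SHAS2 in the table, 0.946), upstream PTGER3 (0.943), RIMKLB (0.942) and PLOD2 (0.941), and 0.829 to 0.884 without PND0 3 and PND0 4. The rank correlation of upstream PTGER3 with PLA2G4E was lower, at 0.706.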

How the data were processed

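The authors deposited 1 table with a normalized signal per gene and library, a linear value with a minimum of 1 (per the file's values). The submitters' processing notes name bcl2fastq and the build Sscrofa10.2, on which the positions are given. How reads were aligned, counted (with or without strand) and normalized is not given in the sources used here. Reads could not be recovered from the values, so no count test was run and no counting interval is given. Placeholder entries were named through an NCBI gene table of Sscrofa11.1, which holds 14468 of the 20390 entries. It gave names for 6403 of 13716 placeholders and was otherwise used only for the neighbours of PTGER3; none of its coordinates are given. CBR1 and TBXAS1 were matched by the table's description and PRXL2B as FAM213B. No pair of libraries was identical, and 17.8% to 22.1% of entries sat at the minimum per library.

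Values were analysed as log2(value + 1) in R 4.3.3 by limma 3.58.1 and statmod 1.5.0, with a mean per group, all 12 libraries, and trended robust empirical Bayes moderation. Tests were two-sided with Benjamini-Hochberg adjustment. The fit was tested on simulated data. Tables were made in Python 3.11.15 with pandas 2.3.3 and numpy 2.4.6, and figures with matplotlib 3.10.9. Markers were listed for epithelium, smooth muscle, endothelium, stroma, macrophages, mast cells, neutrophils and uterus.

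Named genes are all members and, from the 5 pathway lists, each gene past the threshold and the one with the highest mean of its list. PTGES2 and PTGES3 were added after their values were seen. Likeness was listed for PTGS2, PTGES and the member with the smallest F-test p (PLA2G4E). The members and lists were chosen with earlier results of these data known. Alternatives were 0.1 or 5 added to the value, no filter, a filter at 10, TMM scaling, quantile normalization, library quality weights, fits of only the groups compared, and each library left out. Fits without 3 libraries and with the ratio covariate were chosen after seeing the data.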

Additional observations from a re-analysis of the deposited data

Results flagged for a closer look

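In PTGS2, the inducible cyclooxygenase, 1 replacer-fed library lay far from the rest of its group. PND2R 2 held a normalized value of 497.5, while the other 3 replacer-fed libraries held 127.6 to 190.8, and the gap to the nearest of them was 0.829 of the group's whole range. It is 1 of the 3 day 2 libraries that stood apart in single markers such as DES. Of the others, PND2R 3 held 149 and PND2N 1 held 290.0, both within the range of their groups. The groups of 4 examined this way numbered 48, and chance marks about 1 in 20. Only 1 group, this one, was marked, which is no more than chance would give. The cutoff for a mark was also 0.829, so the gap lies at it.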

How the results depend on the processing

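No log2 change of a member entry changed sign as a called value under any alternative. Many of the recomputed member values could not move. The filter settings, the fits of only the groups compared and leaving out a library of the third group do not alter a log2 change. With these included, 655 values stayed within the spread and 5 moved. All 5 moved with the ratio covariate: PLA2G4A to 0.75 in PND2N and 0.72 in PND2R, PTGER2 in PND2R to -0.03, and downstream PTGER3 to 0.63 in PND2N and 1.23 in PND2R. The cause was not tested. Passing member entries in PND2N against PND0 numbered 1, and 2 with library quality weights, 0 with only the groups compared, 0 to 2 with a library left out, 0 without the 3 libraries that stood apart and 0 with the covariate. In PND2R against PND0 the 3 became 0 without those 3 libraries and 1 with the covariate. Pathway entries in PND2N went from 2 to 1 with TMM scaling or quality weights, 0 with only the groups compared, 0 to 1 with a library left out, and 0 without the 3 libraries or with the covariate. In PND2R they went from 6 to 3 with no filter, 1 to 8 with a library left out, and 1 without the 3 libraries or with the covariate.

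Over all entries, those that passed in PND2N against PND0 numbered 560, and 859 with no filter, 7 with only the groups compared, 26 to 661 with a library left out, 275 without the 3 libraries and 1084 with the covariate. In PND2R they numbered 2531, and 543 to 4109 with a library left out, 284 without the 3 libraries and 921 with the covariate. Between the day 2 groups they numbered 2, and 6 with quality weights, 1 with only the groups compared, 1 to 3 with a library left out and 6 without the 3 libraries. Quantile normalization moved the median log2 change of all entries in PND2R from -0.055 to 0.052; no member with a passing change changed direction under it.

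No paired analysis was possible because the library numbers were given in accession order and the labels name no shared litter, batch or day. The depth behind the values is unknown, so low values such as those of PLA2G4E at day 2 and TBXAS1 at birth have no counting interval.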
